A study of Homo sapiens with 4 samples.

Results

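The 40 genes described here encode the protein-folding machinery of the human cytosol and mitochondria, with the 2 heat shock factors that drive many of them. They were taken by gene symbol from a list by function that was drawn up with earlier results of these data known, and all 40 were found among the 38972 genes of the expression table. They fall into 9 classes: the heat shock factors (2 genes), HSP70 with its HSP110 relatives (7), HSP90 (2), adaptors of HSP90 and HSP70 (6), a small heat shock protein (1), the HSP40 or J-domain proteins (5), the BAG nucleotide exchange factors (4), the ring-shaped chaperonin TRiC (8) and the mitochondrial chaperones (5).

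HSP70 proteins bind exposed hydrophobic stretches of unfolded proteins in a cycle of ATP binding and hydrolysis. HSP40 proteins deliver clients and start hydrolysis, while HSP110 and BAG proteins release ADP and with it the client. HSP90 receives partly folded kinases and receptors from HSP70 through adaptors, TRiC encloses actin and tubulin, and HSPD1 with its lid HSPE1 does the same for proteins imported into mitochondria. When unfolded proteins accumulate, HSF1 forms trimers and binds heat shock elements, inverted repeats of the unit GAA and its complement TTC, in front of many of these genes.

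RNA was sequenced from HEK293T, an established human embryonic kidney cell line. Of the 4 libraries, 2 are labelled oeFlag, which the submitters describe as overexpression of the Flag epitope tag, and 2 oeRNH1, described as overexpression of RNase H1, the nuclease that cuts RNA paired with DNA. All came from the same cell line with the same RNA extraction and library kit, while the sources used here do not give the vector, the time of expression or whether replicates were separate cultures. P-values then measure only the spread between these libraries, which may be technical.

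The transcript of that enzyme was not higher in the libraries labelled with it. RNASEH1 stood at 32.1 and 32.8 TPM (a share of the library's transcripts, corrected for transcript length) in the libraries labelled oeFlag and at 29.9 and 29.7 TPM in those labelled oeRNH1 (log2 fold change -0.12 ± 0.06, SE, limma adjusted p = 0.260). Groups are therefore called by their labels, and every direction is that of the libraries labelled oeRNH1 relative to those labelled oeFlag. All 7 markers listed for HEK293 cells averaged 1 TPM or more, led by VIM at 925 TPM, and of these VIM was called higher and NEFL and NEFM lower. Of 24 markers of epithelium, fibroblasts, blood, liver and endothelium, 9 reached 1 TPM, and HBB, SERPINA1 and TTR were listed at 0 in all 4 libraries. The epithelial markers summed to 160.4 and 159.7 TPM in the libraries labelled oeFlag and to 192.7 and 189.3 TPM in those labelled oeRNH1, nearly all of it from KRT8 and KRT18. Their part in the results below was not tested. Log2 values of all tested genes correlated at 0.98 to 0.99 between libraries.

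Heat shock elements could be looked up in RefSeq promoter windows on GRCh38.p14, 250 bases before to 50 bases after each listed start, which matched 35 of the 40 genes. The 2-unit element was searched as GAANNTTC or TTCNNGAA, each its own reverse complement, and the 3-unit element as the first of these followed by NNGAA or the second followed by NNTTC, which covers both strands. The 3-unit form was found in 7 of the 35 (20.0%), against 0.608% of all 27305 genes with a window. These were HSPA8, HSP90AA1, HSP90AB1, HSPD1, DNAJA1, DNAJB6 and CHORDC1. The 2-unit form, which lies within every 3-unit match, was in 19 of 35 (54.3%), against 16.2% of all genes. Stretches at the starts of 6 genes are shown because their elements can be set beside their transcript levels further on. Of these, HSP90AB1 was not called and the others rose. DNAJB6 and HSPD1, which have 3-unit elements and were not called, are not shown. Capitals mark the 3-unit elements or, in DNAJB1, the 2-unit elements, and overlapping matches run together.
HSPA8: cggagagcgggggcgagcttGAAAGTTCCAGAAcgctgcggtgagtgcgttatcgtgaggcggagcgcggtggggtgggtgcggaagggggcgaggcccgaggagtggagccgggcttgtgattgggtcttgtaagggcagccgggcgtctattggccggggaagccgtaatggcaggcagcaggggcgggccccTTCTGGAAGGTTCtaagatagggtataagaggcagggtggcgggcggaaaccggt
HSP90AA1: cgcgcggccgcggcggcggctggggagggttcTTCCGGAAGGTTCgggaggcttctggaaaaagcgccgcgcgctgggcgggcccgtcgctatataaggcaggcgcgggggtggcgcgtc
HSP90AB1: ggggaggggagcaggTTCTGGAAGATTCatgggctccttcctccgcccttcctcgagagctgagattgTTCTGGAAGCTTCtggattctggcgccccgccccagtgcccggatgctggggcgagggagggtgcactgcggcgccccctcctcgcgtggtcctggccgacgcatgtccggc
DNAJA1: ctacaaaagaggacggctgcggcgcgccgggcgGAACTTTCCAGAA
CHORDC1: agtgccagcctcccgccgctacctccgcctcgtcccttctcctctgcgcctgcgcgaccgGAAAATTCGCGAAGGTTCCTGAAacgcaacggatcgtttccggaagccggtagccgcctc
DNAJB1: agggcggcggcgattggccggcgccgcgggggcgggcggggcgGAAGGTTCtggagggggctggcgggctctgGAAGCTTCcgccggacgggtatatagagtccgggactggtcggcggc
Each is written 5′ to 3′ on the strand of its gene and, except for DNAJA1, ends at the base before the start. HSPA8 (chr11:123062137-123062386, minus strand) has elements that begin 230 and 55 bases before the start. HSP90AA1 (chr14:102087045-102087164, minus strand) has an element beginning 88 bases before the more downstream of its 2 listed starts. HSP90AB1 (chr6:44247763-44247942, plus strand) has elements 165 and 112 bases before the most downstream of its 3 listed starts, and none in the windows of the other two. DNAJA1 (chr9:33025243-33025288, plus strand) carries its element from the fourth transcribed base on, so its stretch runs from 30 bases before the start to transcribed base 16. CHORDC1 (chr11:90223050-90223169, minus strand) has 3 overlapping matches beginning 60, 55 and 50 bases before the start. DNAJB1 (chr19:14518398-14518517, minus strand) has 2-unit elements 77 and 47 bases before 1 of its 3 listed starts. Another of its starts, not shown, has a 2-unit element from transcribed base 2 on. A match is a run of letters, and binding was not measured.

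The chaperones of the cytosol were split between members that rose by 14.1% (CCT4) to 36.1% (DNAJA1) and members that did not pass the test, while 2 of the 5 mitochondrial members fell and none rose. All 40 genes passed the filter on low values, and 9 rose, 3 fell and 28 did not pass the test (limma on log2 of TPM + 1, two-sided, Benjamini-Hochberg adjustment over the 15651 genes that average 1 TPM or more, called at an adjusted p under 0.05). That is 30.0% of the members called, where 11.8% of all tested genes were called, 6.3% of them higher and 5.54% lower. Most of these chaperones are abundant, and among the 1588 tested genes that average 100 TPM or more the called share was 21.9%, against 33.3% for the 27 members at that level, a comparison chosen after the data were seen. Groups did not overlap in 30 members, 22 higher and 8 lower, where they did not overlap in 60.7% of all tested genes, 31.3% higher and 29.4% lower. Over the 40 the median log2 fold change was 0.06, and over all tested genes 0.00. No member changed by 2-fold: the range was -0.46 for TRAP1 to 0.44 for DNAJA1. Because the libraries are of bulk RNA, fewer cells with a transcript and less of it per cell cannot be told apart.

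All 12 calls were lost with no filter on low values, with variances that follow no intensity trend and in each fit that left out a library, where hardly any gene of the table passed. Their direction was kept in all 14 alternatives. All of these fits reuse libraries that chose the 12 genes, so a kept direction is no independent check. Other limits are given beside the gene.

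**Figure D1:**
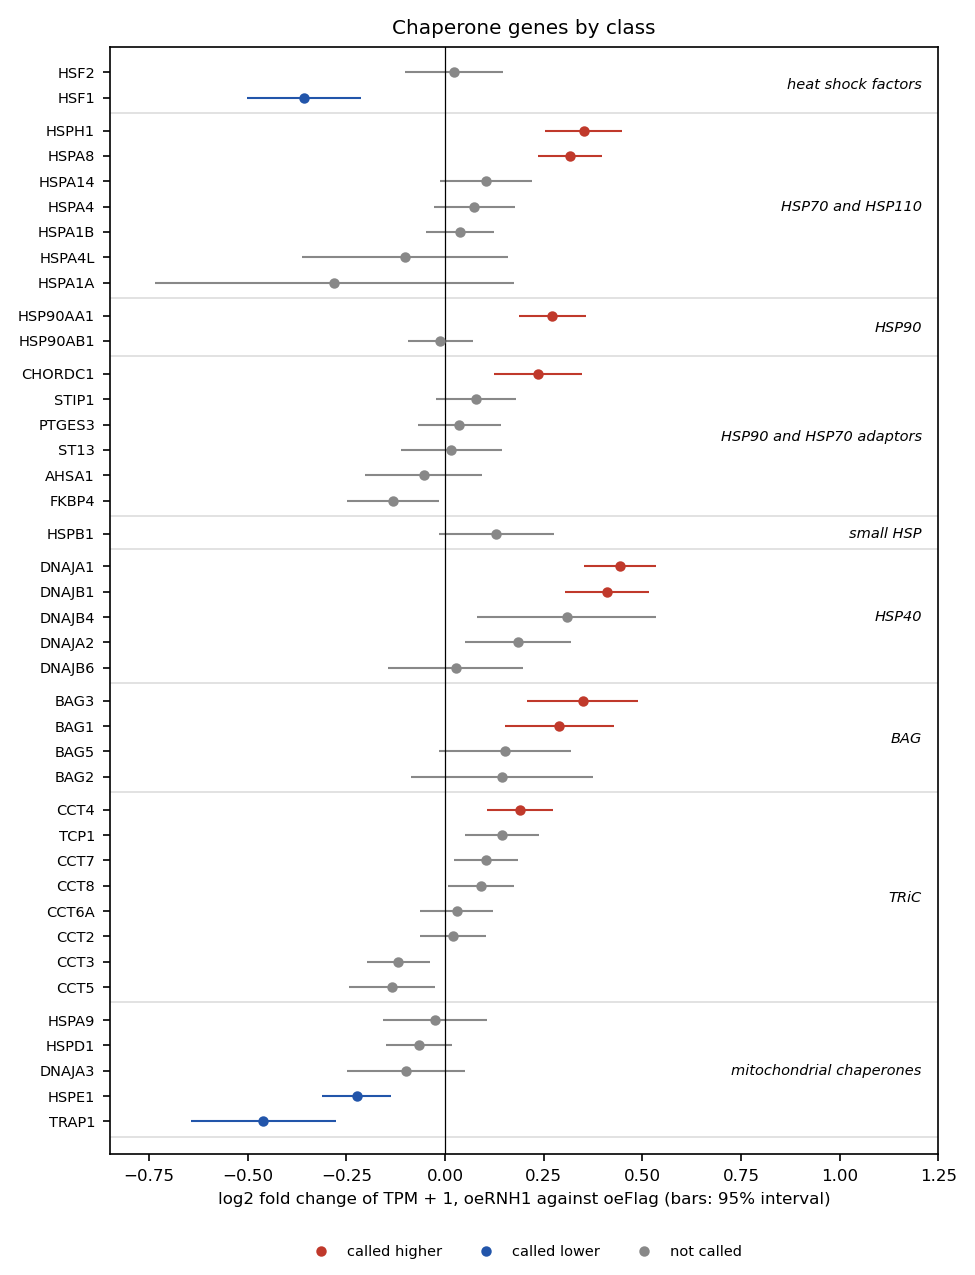
Log2 fold changes (x axis, of TPM + 1, libraries labelled oeRNH1 against oeFlag, 2 libraries each) of the 40 chaperone genes, grouped by class, with 95% intervals from limma as bars. Red points are called higher (9), blue points lower (3) and grey points not called (28). TRAP1 at -0.46 and DNAJA1 at 0.44 mark the ends of the range.

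HSF1, the main activator of the heat shock response, fell. HSF1 (chromosome 8, 144291591 to 144314722, plus strand, GENCODE release 29 on GRCh38) was at 52.3 and 50.8 TPM in the libraries labelled oeFlag and at 40.7 and 39.4 TPM in those labelled oeRNH1. Both libraries labelled oeRNH1 were below both others, by a log2 fold change of -0.36 ± 0.06 (SE, limma adjusted p = 0.0226). The longest HSF1 transcript has a GC content of 64.7%, the highest of the 40, and after correction for GC content the change was -0.24 and no longer called (limma adjusted p = 0.0655). HSF2, a related factor active in development, was at 76.9 and 76.5 TPM against 79.3 and 76.6 TPM, so its groups overlapped (log2 0.02 with a 95% interval from -0.10 to 0.15).

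Among the HSP70 genes the constitutive member rose and the stress-inducible pair was not called. HSPA8, the constitutive HSP70 that folds new proteins and uncoats clathrin vesicles (chromosome 11, 123057489 to 123063230, minus strand), was at 1329 and 1373 TPM in the libraries labelled oeFlag and at 1701 and 1666 TPM in those labelled oeRNH1. The groups were 293 TPM apart, and the log2 fold change was 0.32 ± 0.03 (SE, limma adjusted p = 0.00988). HSPH1, an HSP110 that releases ADP from HSP70 (chromosome 13, 31134974 to 31162388, minus strand), was at 176.1 and 177.2 TPM against 226.2 and 225.0 TPM. Replicates of HSPH1 differed by about 1 TPM, and it rose by 0.35 ± 0.04 on the log2 scale (limma adjusted p = 0.0106).

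HSPA1A and HSPA1B, the heat-induced HSP70 genes, lie side by side on chromosome 6 (31815464 to 31817946 and 31827735 to 31830255, both plus strand) and are nearly identical in sequence, so how reads were split between them is uncertain. HSPA1A (log2 -0.28) was listed at 8.05, 6.06, 4.76 and 6.51 TPM and HSPA1B at 634, 652, 666 and 653 TPM, in the order oeFlag replicates 1 and 2, oeRNH1 replicates 1 and 2. Their sum was 642 and 658 TPM in the libraries labelled oeFlag and 671 and 660 TPM in those labelled oeRNH1, with groups 1.81 TPM apart. The fold change of HSPA1B was 0.04, with a 95% interval from -0.05 to 0.12 that leaves out a rise of the size seen in HSPA8. The remaining members of the class were not called: HSPA4, another HSP110, was at 217 and 209 against 224 and 225 TPM, HSPA14, which works at the ribosome, at 83.1 and 82.6 against 88.6 and 89.7 TPM, and the HSP110 relative HSPA4L at 58.4 and 48.7 against 46.3 and 53.2 TPM. In HSPA4L the groups overlapped.

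Of the 2 cytosolic HSP90 genes, the inducible one rose and the constitutive one was not called. HSP90AA1, the inducible form (chromosome 14, 102080738 to 102139699, minus strand), was the most abundant of the 40 at 1495 and 1472 TPM in the libraries labelled oeFlag and 1831 and 1751 TPM in those labelled oeRNH1. Its groups were 256 TPM apart and it rose by 0.27 ± 0.03 (SE, log2 scale, limma adjusted p = 0.0141). HSP90AB1, the constitutive form (chromosome 6, 44246166 to 44253888, plus strand), was at 1059 and 1057 TPM against 1069 and 1031 TPM. These groups overlapped, with a log2 fold change of -0.01 and a 95% interval from -0.09 to 0.07. The ratio of HSP90AA1 to HSP90AB1 was 1.41 and 1.39 in the libraries labelled oeFlag and 1.71 and 1.70 in those labelled oeRNH1. An exact two-sided permutation test of this ratio gave p = 0.333, the smallest that 2 against 2 libraries allow (0.381 adjusted over 8 ratios). The 8 include HSPA1A to HSPA8, at 0.00606 and 0.00441 against 0.00280 and 0.00391 (p = 0.333 by the same exact test), and HSPA4L to HSPA4, at 0.269 and 0.234 against 0.207 and 0.237, whose groups overlapped (exact p = 0.667). Among the stretches shown, HSP90AA1 has a single 3-unit heat shock element and HSP90AB1 has 2, in each gene at only 1 of the listed starts. Which start was used was not measured.

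Of the 6 adaptors, 1 rose and the other 5 were not called, 16.7% called against 11.8% of all tested genes. CHORDC1, a zinc-binding HSP90 co-chaperone also known as morgana (chromosome 11, 90201160 to 90223364, minus strand), was at 110.8 and 111.4 TPM in the libraries labelled oeFlag and at 128.8 and 133.0 TPM in those labelled oeRNH1. It rose by 0.23 ± 0.05 (SE, log2 scale, limma adjusted p = 0.0323), with groups 17.4 TPM apart. CHORDC1 has a GC content of only 34.97%, and after GC correction its change of 0.16 was not called (limma adjusted p = 0.0839). PTGES3, the p23 protein that stabilises closed HSP90, was at 696 and 688 against 736 and 685 TPM, and STIP1, the bridge between HSP70 and HSP90, at 419 and 432 against 460.4 and 438 TPM. The groups overlapped for PTGES3 and were 6.21 TPM apart for STIP1 (limma adjusted p = 0.259). ST13, which holds HSP70 in its ADP form, and AHSA1, which speeds ATP hydrolysis by HSP90, also had overlapping groups around means of 242 and 257 TPM. FKBP4, an immunophilin of steroid receptors, was at 136.0 and 141.5 against 124.4 and 128.6 TPM (log2 -0.13 ± 0.05, limma adjusted p = 0.123).

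HSPB1, the small heat shock protein HSP27, holds unfolded proteins without using ATP. It was at 85.6 and 93.8 TPM against 98.7 and 97.5 TPM and was not called (log2 0.13 ± 0.06, limma adjusted p = 0.198). Its GC content is 64.3%, and after GC correction it was called higher by 0.25 (limma adjusted p = 0.0394).

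The HSP40 genes had the highest median fold change of the classes with at least 2 members, 0.31, and 2 of 5 rose. DNAJA1, a farnesylated partner of HSPA8 (chromosome 9, 33025211 to 33039907, plus strand), was at 376 and 390.5 TPM in the libraries labelled oeFlag and at 522 TPM in both labelled oeRNH1. It rose by 0.44 ± 0.04 (SE, log2 scale), with the smallest adjusted p of the 40 genes (limma adjusted p = 0.00695). DNAJB1, the heat-inducible HSP40 that starts disaggregation by HSP70 and HSP110 (chromosome 19, 14514770 to 14529770, minus strand), was at 110.3 and 109.9 TPM against 146.6 and 146.5 TPM. Replicates of DNAJB1 agreed to within 0.39 TPM, and it rose by 0.41 ± 0.04 (limma adjusted p = 0.00990).

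The other three HSP40 genes were not called. DNAJB4 was at 44.1 and 39.3 against 55.6 and 48.2 TPM (log2 0.31 ± 0.09, limma adjusted p = 0.0832), and it was called with the replicate number as a block (adjusted p = 0.0249). DNAJA2, the closest relative of DNAJA1, was at 71.8 and 67.6 against 79.3 and 79.4 TPM (log2 0.18 ± 0.06, limma adjusted p = 0.0810). DNAJB6, which suppresses aggregation of polyglutamine proteins, was at 206 and 230.4 against 212 and 232 TPM, with overlapping groups. The ratio of DNAJA1 to DNAJA2 was 5.24 and 5.77 in the libraries labelled oeFlag and 6.58 in both others, and that of DNAJB1 to DNAJB6 was 0.534 and 0.477 against 0.691 and 0.630. For both ratios the exact permutation p was 0.333, the smallest possible.

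Of the 4 BAG genes 2 rose, and all 4 had groups that did not overlap, which held for 60.7% of all tested genes. BAG3, which links HSP70 to small heat shock proteins and to autophagy (chromosome 10, 119651370 to 119677819, plus strand), was at 39.4 and 38.4 TPM in the libraries labelled oeFlag and at 50.01 and 49.6 TPM in those labelled oeRNH1. It rose by 0.35 ± 0.06 (SE, log2 scale, limma adjusted p = 0.0227). BAG1, which links HSP70 to the proteasome (chromosome 9, 33247820 to 33264720, minus strand), was at 63.0 and 61.7 against 78.8 and 74.1 TPM and rose by 0.29 ± 0.06 (limma adjusted p = 0.0324). The ratio of BAG3 to BAG1 was 0.626 and 0.622 against 0.635 and 0.670, and the exact permutation p was 0.333. BAG5, at 25.7 and 24.9 against 27.7 and 28.6 TPM, and BAG2, an inhibitor of the ubiquitin ligase CHIP, at 10.0 and 10.5 against 11.8 and 11.1 TPM, were not called (limma adjusted p = 0.192 and 0.354).

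**Figure D2:**
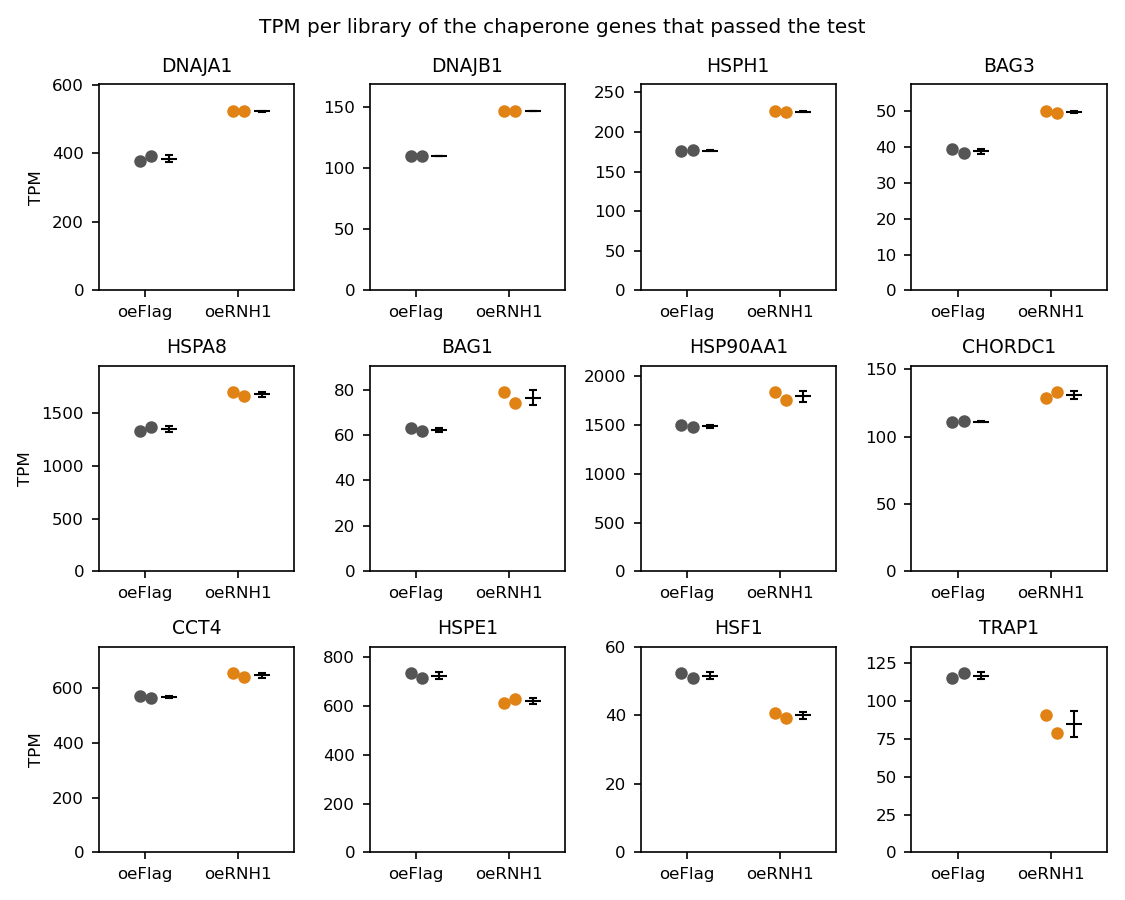
TPM (y axis, from 0, a scale for each gene) in each of the 4 libraries for the 12 chaperone genes that passed the test, ordered by fold change. Grey points are libraries labelled oeFlag, orange points those labelled oeRNH1, and the black mark beside each pair is the mean with the SD (n = 2). In each panel the groups are separated, upward in 9 genes and downward in HSPE1, HSF1 and TRAP1.

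TRiC is built from 8 different subunits in equal number, and its transcripts lay within a narrow range. In every library CCT6A was the lowest and CCT7 the highest, at 382 and 676 TPM in oeFlag replicate 1 and 392.2 and 738 TPM in oeRNH1 replicate 1. The highest stood 1.77 to 1.90 times above the lowest, and the coefficient of variation over subunits was 20.7% to 21.2% in the 4 libraries. CCT4 (chromosome 2, 61868089 to 61888804, minus strand) was the subunit that passed the test. It was at 571 and 565 TPM in the libraries labelled oeFlag and at 655 and 641 TPM in those labelled oeRNH1, a rise of 0.19 ± 0.03 (SE, log2 scale, limma adjusted p = 0.0269).

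The other 7 subunits were not called, and their fold changes had both signs. TCP1 was at 435 and 445 against 495 and 477 TPM (log2 0.14 ± 0.04, limma adjusted p = 0.0629). It was called with a minimum mean of 5 TPM and under quantile normalization. CCT7 was at 676 and 686 against 738 and 725 TPM (log2 0.10 ± 0.03, limma adjusted p = 0.0972) and was called under quantile normalization. CCT3 was at 662 and 660.4 against 614 and 604 TPM (log2 -0.12 ± 0.03, limma adjusted p = 0.0695), and CCT5 at 571 and 577 against 504 and 541 TPM (log2 -0.13 ± 0.04, limma adjusted p = 0.1005). Both CCT3 and CCT5 were lower in both libraries labelled oeRNH1 without passing the test. CCT8 was at 428 and 429 against 458 and 455 TPM, CCT2 at 489 and 490.5 against 500.0 and 494 TPM, and CCT6A at 382 and 375 against 392.2 and 381 TPM.

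**Figure D3:**
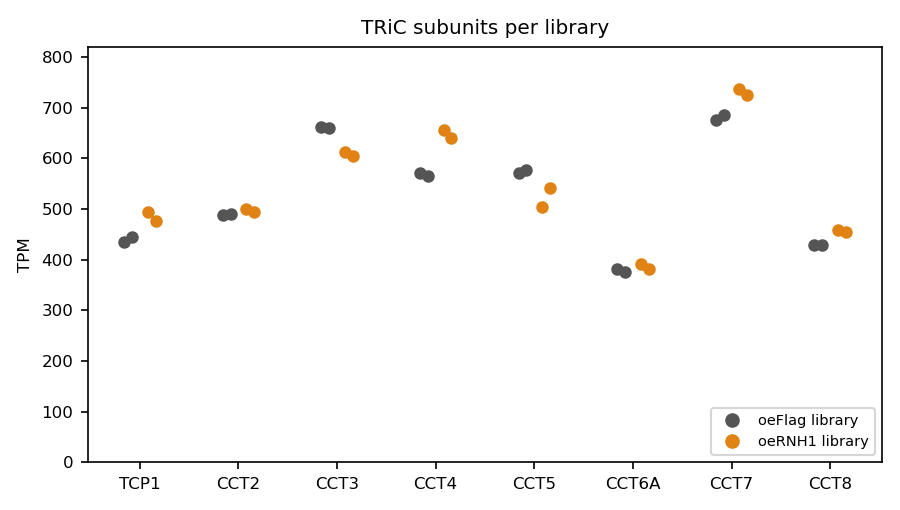
TPM (y axis) of the 8 TRiC subunits (x axis) in each library, grey for oeFlag and orange for oeRNH1. CCT4 moved from 571 and 565 TPM to 655 and 641 TPM, CCT3 and CCT5 lie lower in the libraries labelled oeRNH1, and CCT6A overlaps between groups.

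Of the 5 mitochondrial chaperones 2 fell and 3 were not called, with a median log2 fold change of -0.10. All 5 values were below 0 with all libraries, but HSPA9 was at 0.04 without oeFlag replicate 2 and HSPD1 at 0.00056 under quantile normalization, and 8 of the 35 other members were below 0 as well. TRAP1, the mitochondrial HSP90 (chromosome 16, 3651639 to 3717597, minus strand), was at 114.9 and 118.2 TPM in the libraries labelled oeFlag and at 90.7 and 78.6 TPM in those labelled oeRNH1. Its spread was widest between the libraries labelled oeRNH1, the groups stood 24.2 TPM apart, and the log2 fold change was -0.46 ± 0.08 (SE, limma adjusted p = 0.0223). HSPE1, the lid of the mitochondrial chaperonin (chromosome 2, 197499994 to 197503457, plus strand), was at 734 and 716 TPM against 612 and 629 TPM. It fell by 0.22 ± 0.04 on the log2 scale (limma adjusted p = 0.0210). Both calls were kept after GC correction (limma adjusted p = 0.0309 and 0.0268).

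HSPD1, the barrel that HSPE1 closes (chromosome 2, 197486581 to 197516737, minus strand), is transcribed away from HSPE1, with RefSeq starts 105 and 539 bases from that of HSPE1. HSPD1 was at 845 and 851 TPM in the libraries labelled oeFlag and at 824 and 796 TPM in those labelled oeRNH1 (log2 -0.07, limma adjusted p = 0.246). Its 95% interval ran from -0.15 to 0.02. The ratio of HSPE1 to HSPD1 was 0.869 and 0.842 against 0.743 and 0.790, and its exact permutation p was 0.333, the smallest possible. HSPE1-MOB4, a readthrough transcript that shares exons with HSPE1, was listed at 5.52 and 2.82 against 8.07 and 12.99 TPM, and how shared reads were assigned was not given. HSPA9, the mitochondrial HSP70 that pulls proteins through the import channel, was at 280.3 and 309 against 287 and 291 TPM, with overlapping groups. DNAJA3, its HSP40 partner, was at 86.5 and 81.5 against 81.2 and 75.7 TPM, and its groups were 0.28 TPM apart.

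Summed over each class, HSP40 transcripts went from 809 and 838 to 1015 and 1029 TPM, the largest relative difference of the 9 classes at 24.2% between group means. HSP70 and HSP110 went from 2506 and 2548 to 2957 and 2919 TPM (16.3%), HSP90 from 2554 and 2529 to 2900 and 2781 TPM (11.8%) and BAG from 138.0 and 135.5 to 168.2 and 163.5 TPM (21.3%). TRiC, the class with the highest sum, differed by 2.76% and the adaptors by 2.30%. The mitochondrial sum was 2061 and 2075 TPM in the libraries labelled oeFlag and 1895 and 1870 TPM in those labelled oeRNH1, a difference of -8.98%. All 40 genes together took 1.44% and 1.45% of the listed TPM in the libraries labelled oeFlag and 1.54% and 1.52% in those labelled oeRNH1. The sum of HSP40 stood at 0.394 and 0.396 of the sum of HSPA1A, HSPA1B, HSPA8 and HSPA14 in the libraries labelled oeFlag, and at 0.413 and 0.426 in those labelled oeRNH1 (exact permutation p = 0.333, the smallest possible). Sums follow their most abundant genes, since HSP90AA1, HSPA8 and HSP90AB1 alone made up 27.0% to 29.8% of the total.

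**Figure D4:**
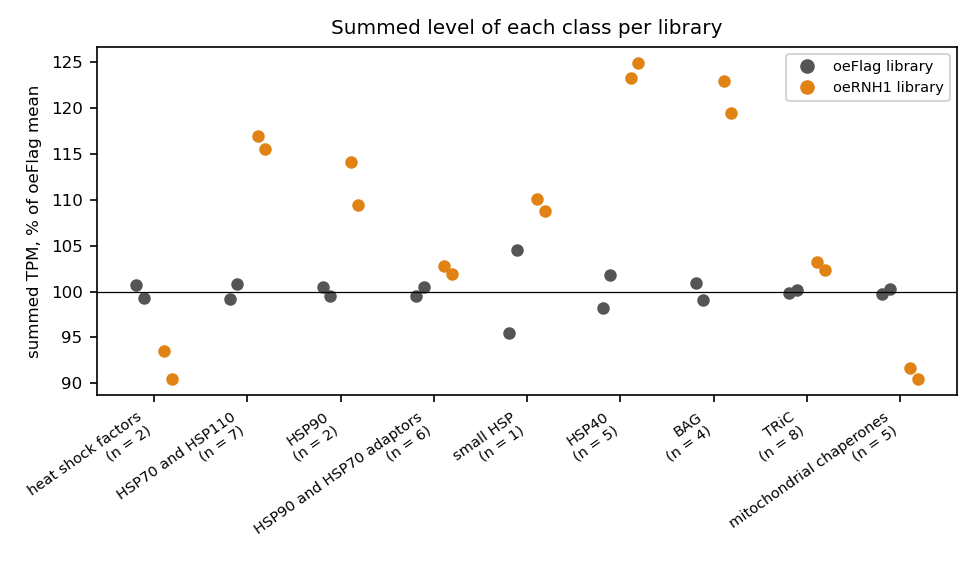
Summed TPM of each class in each library as a percentage of the mean of the 2 libraries labelled oeFlag (y axis), grey for oeFlag and orange for oeRNH1, with the number of genes in each class on the x axis. HSP40 and BAG stand highest in the libraries labelled oeRNH1, adaptors and TRiC lie near 100, and mitochondrial chaperones and heat shock factors below it.

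A list of heat-responsive genes took in 18 of the 40, among them HSPA8 and HSP90AB1, which are constitutive and described above as such. Of these 18, HSPA8, HSPH1, HSP90AA1, DNAJA1, DNAJB1, BAG3 and CHORDC1 rose (7), HSPE1 fell and 10 were not called (HSPA1A, HSPA1B, HSPA4L, HSP90AB1, HSPB1, DNAJB4, HSPD1, STIP1, AHSA1 and FKBP4). Of the other 22, BAG1 and CCT4 rose, HSF1 and TRAP1 fell and 18 were not called. Called shares were 44.4% of the 18 and 18.2% of the 22, against 11.8% of all tested genes. All 9 genes that rose had a promoter window, and HSPA8, HSP90AA1, DNAJA1 and CHORDC1 held a 3-unit element, 4 of 9, against 3 of 24 of the genes not called (DNAJB6, HSP90AB1 and HSPD1). The 2-unit form was in 6 of these 9 (66.7%) and in 13 of these 24 (54.2%). Over the whole table the 3-unit element was in 50 of the 11138 tested genes with a window (0.449%), and 7 of these 50 are the chaperone genes named above. It was in 7 of 773 genes called higher (0.906%), and 4 of these 7 are the chaperone genes that rose. Among genes called lower it was in 5 of 678 (0.737%), with 0 chaperone genes. A link between element and fold change was not tested. DNAJB1 has 2-unit elements, CCT4 has 1 in a window at transcribed base 39, and no form of the motif was found in the windows of HSPH1, BAG3, BAG1, HSPE1 and TRAP1. Sequence beyond the windows was not searched for these genes. The HSPD1 elements begin 245 and 240 bases before the HSPD1 start that lies 539 bases from that of HSPE1, outside the HSPE1 window.

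GC content went along with the fold change to a limited degree. Over the 40 genes, which share the same libraries, Pearson's r between GC content of the longest transcript and log2 fold change was -0.39 and Spearman's rho -0.33, and over 15323 tested genes they were -0.19 and -0.22. DNAJB1 at 53.0% and BAG3 at 56.9% GC rose, and CHORDC1 at 34.97% and HSPH1 at 39.95% rose as well. Of the 12 calls, 10 were kept after GC correction, with HSF1 and CHORDC1 lost.

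**Figure D5:**
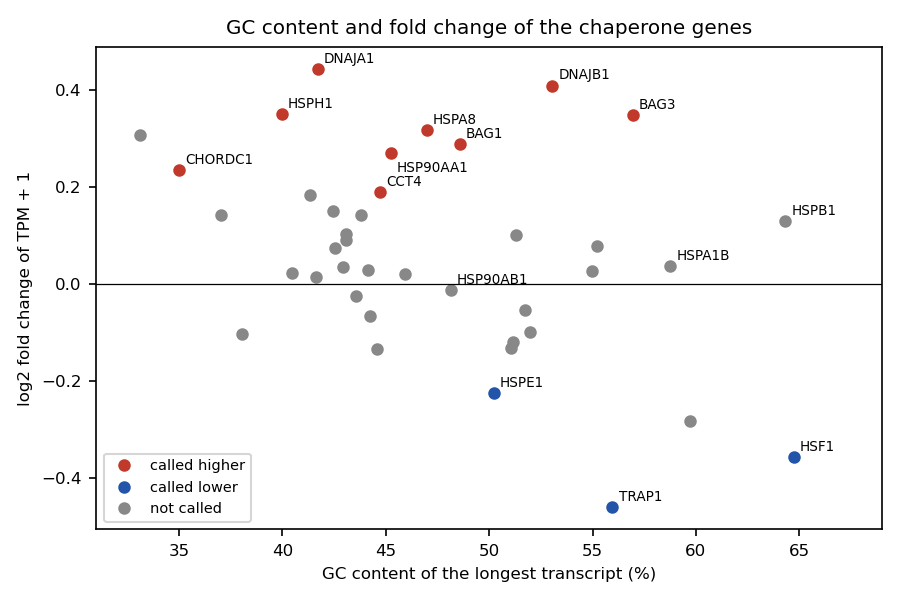
Log2 fold change of TPM + 1 (y axis) against GC content of the longest transcript (x axis, %) for the 40 chaperone genes, red for genes called higher, blue for lower and grey for not called. Genes called higher lie between 34.97% and 56.9% GC, and genes called lower between 50.2% and 64.7%.

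Heat-responsive genes outside the 40 were read from lists of the wider network. Of 18 tested heat shock factor partners and heat-inducible genes 11 rose, 0 fell and 7 were not called, with a median log2 fold change of 0.28. The called share was 61.1%, against 11.8% of all tested genes (6.3% higher and 5.54% lower). FOS and ATF3, stress-responsive transcription factors, rose by 1.85 ± 0.11 and 1.11 ± 0.05 on the log2 scale (SE, limma adjusted p = 0.00341 and 0.00240). HSPA6 is counted in this list and again in the next one. Many genes of this list also answer to stimuli other than heat.

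Among other HSP70, BAG and small heat shock protein genes 4 rose, 1 fell and 4 were not called of 9 tested. The called share was 55.6%, against 11.8% of all tested genes. HSPA6, an HSP70 that is nearly silent until heat or severe stress, was at 2.73 and 3.62 TPM in the libraries labelled oeFlag and at 9.70 and 9.50 TPM in those labelled oeRNH1. That was a rise of 1.35 ± 0.15 on the log2 scale (SE, limma adjusted p = 0.00990), above that of any of the 40, at a level far below HSPA8 and HSPA1B. HSPA6 has a 3-unit element 74 bases before its start and a near-identical neighbouring copy, so its value is uncertain. HSPB8, the small heat shock protein that BAG3 carries, went from 24.1 and 25.6 to 44.5 and 38.1 TPM (log2 0.71 ± 0.09, limma adjusted p = 0.0143). HSPA2, an HSP70 best known from the testis, went from 4.80 and 4.32 to 9.22 and 8.99 TPM (log2 0.86 ± 0.12, limma adjusted p = 0.0155). Of 18 other cytosolic J proteins 1 rose, 0 fell and 17 were not called, a called share of 5.56% against 11.8% of all tested genes. The gene that rose was DNAJC9, a histone-binding J protein, at 53.1 and 50.1 against 70.1 and 68.98 TPM (log2 0.42 ± 0.06, limma adjusted p = 0.0156).

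Of 16 further HSP90 co-chaperones 0 rose, 2 fell and 14 were not called. That is 12.5% called, near the 11.8% of all tested genes. PPP5C, a phosphatase that docks on HSP90, went from 121.5 and 120.1 to 91.0 and 92.2 TPM (log2 -0.40 ± 0.05, SE, limma adjusted p = 0.0114). STUB1, the ubiquitin ligase CHIP that marks clients of HSP70 and HSP90 for degradation, went from 65.3 and 65.0 to 48.2 and 52.5 TPM (log2 -0.37 ± 0.06, limma adjusted p = 0.0246). The call of STUB1 was lost after GC correction (limma adjusted p = 0.0568).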

How the data were processed

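Expression in 4 HEK293T libraries was analysed from the table of TPM that the authors deposited, with a column for each library. The submitters' processing notes name STAR and hg38, and versions, quantification program, annotation and strand setting are not given. Columns summed to between 998901 and 998955 TPM. The sequencing depth cannot be recovered from TPM and is unknown, and counting intervals were not computed.

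The 15651 genes that average 1 TPM or more were compared on log2(TPM + 1) with limma 3.58.1 in R 4.3.3, with variances moderated along an intensity trend. Fold changes on this scale understate those of low genes. Errors of fold changes are standard errors, and intervals cover 95%. The fit was tested on data simulated with its own variances. It called 100 of 100 genes changed by a log2 of 1, 74 of 100 changed by 0.5 and 15 of 15451 left unchanged. In the simulation a change of 0.5 was thus missed in some genes. Changed genes were not drawn from those of low level. Changes between 0 and 0.5 were not simulated, and all 40 members changed by less than 0.5, so the simulation does not give their miss rate. Ratios of 2 genes were compared with exact permutation tests in Python 3.11.15.

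Members, classes and lists were chosen with earlier results of these data known, so no list was tested. All 40 members are named, with full statistics for those called and values for the rest. From each further list up to 3 called genes with the smallest p are named, or the gene with the smallest p where none was called. 1 gene that this rule names is not reported here. Coordinates and GC content came from GENCODE release 29 on GRCh38, and promoters from RefSeq. Protein sequences were not used here. Alternatives were pseudocounts of 0.1 and 5, no filter, a filter at a mean of 5 TPM, normalization by quantiles or by median of ratios, no trend, robust variances, a replicate block, GC correction (a spline with 4 degrees of freedom) and leaving out each library.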

Additional observations from a re-analysis of the deposited data

How the results depend on the processing

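The median log2 fold change of the 40 chaperone genes stayed between 0.05 and 0.08 in 14 alternatives, and no called gene reversed. The counts of 9 higher and 3 lower held within 1.5 times under both pseudocounts, the filter at a mean of 5 TPM, normalization by quantiles or by median of ratios, robust variances, the replicate block and GC correction. With no filter on low values limma called 0 of all tested genes and 0 chaperone genes in every class. At an unadjusted p under 0.05 it had 16 higher and 6 lower chaperone genes, and 5655 of all 28206 tested genes. Without an intensity trend it called 1 gene in all and 0 chaperone genes. At that unadjusted p it had 9 higher and 3 lower chaperone genes, and 4337 of all 15651 tested genes. Leaving out a library, a fit in which the lone library is assumed to vary like the other group, gave 0 to 15 calls over all genes and 0 in every chaperone class, with 10 to 12 higher and 3 to 7 lower chaperone genes at an unadjusted p under 0.05. With all 4 libraries 1853 genes were called. GC correction left 0 calls among heat shock factors, 0 among adaptors and 1 for the small heat shock protein. TRiC had 2 calls with the filter at a mean of 5 TPM and 3 under quantile normalization. The cause of these differences was not tested. Same-numbered libraries deviated together with a correlation of only 0.03 over genes, so the numbers were not taken as pairs. With the replicate block 2442 genes were called in all, 10 chaperone genes higher (DNAJB4 in addition) and 3 lower. Depth is unknown and limits what can be said of genes at a few TPM, such as HSPA1A.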

Other observations

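Prefoldin, which hands new actin and tubulin chains to TRiC, had 0 subunits that rose, 1 that fell and 5 not called. Its called share was 16.7%, against 11.8% of all tested genes. PFDN6 went from 172.8 and 169.9 to 127.1 and 127.6 TPM (log2 -0.43 ± 0.04, SE, limma adjusted p = 0.00903). TRiC-related genes had 0 calls by limma among 4 tested. An unadjusted p under 0.05 was reached by 2 of them, and by 4906 of all 15651 tested genes. The smallest p was that of PDCL, a regulator of TRiC in G protein assembly. PDCL was at 24.8 and 27.4 against 30.1 and 31.9 TPM (log2 0.24 ± 0.08, limma unadjusted p = 0.0235, adjusted p = 0.103). TXNDC9, another cofactor of TRiC named after its values were seen, was at 37.3 and 34.3 against 45.7 and 39.97 TPM (log2 0.25 ± 0.09, limma adjusted p = 0.110).

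Mitochondrial quality control genes had 1 higher, 1 lower and 13 not called of 15 tested, with a median log2 fold change of -0.06. That is 13.3% called, near the 11.8% of all tested genes. LONP1, the matrix protease that degrades misfolded proteins, fell from 45.5 and 47.0 to 35.8 and 34.9 TPM (log2 -0.38 ± 0.06, SE, limma adjusted p = 0.0218). HSCB, a J protein of iron-sulfur cluster assembly, rose from 32.8 and 32.9 to 40.04 and 39.1 TPM (log2 0.26 ± 0.06, limma adjusted p = 0.0458).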
